A study of Mus musculus with 9 samples.

Results

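The deep layer projection neuron genes compared here are 10 genes that mark or specify the neurons of cortical layers 5 and 6, namely Bcl11b, Fezf2, Tbr1, Sox5, Foxp2, Ldb2, Crym, Tle4, Zfpm2 and Nfe2l3. They were taken by gene symbol, and all 10 were among the 14670 genes of the expression table. The table holds RNA sequencing of mouse cortex at embryonic day 16.5, as CPM (reads of a gene scaled to a common library total), for 3 genotypes with 3 libraries each. The control libraries were labelled +/+ for both genes, whereas the methods describe the controls as heterozygous or wild-type littermates, and the mutant libraries were labelled Fzd3 -/- or Celsr3 -/-. The Fzd3 allele lacks an exon, and all animals were on a mixed C57Bl/6 and CD1 background. The study stained cortical sections for Tbr1 and for Ctip2, the protein of Bcl11b, to count early-born neurons. It reported more Ctip2-positive cells in both mutants at a late embryonic stage, with the same result in Tbr1 stainings. The increase of Ctip2 was first noticed at a stage before that of these libraries. The question here is how the mRNA of these genes and of their partners differed over the genotypes. Neither the labels nor the methods say whether each library came from a separate embryo or from a pool, so P values measure the spread between libraries. The steps between the CPM values give 39857305 to 69600589 reads on the listed genes per library, and 3 reads correspond to 0.0427 to 0.0752 CPM.

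Deep layer neurons are the earliest-born projection neurons of the cortical plate. Layer 5 holds the neurons that send axons to the brainstem and spinal cord, under the control of Fezf2 and its downstream partner Bcl11b, and layer 6 holds the corticothalamic neurons, which depend on Tbr1. These regulators restrain each other, and Sox5 sets the order in which the deep layer types arise.

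The mutated genes were read first, as a check of the labels. Celsr3, an atypical cadherin of the planar cell polarity pathway, had a CPM of 196, 243 and 214 across control libraries, 253, 213 and 255 across Fzd3 mutant libraries and 122, 139 and 118 across Celsr3 mutant libraries. The Celsr3 mutants were below every other library, and Celsr3 fell by 0.78 on the log2 scale (SE 0.09, limma adjusted P = 0.0018) against controls. Fzd3, a Frizzled receptor that acts with Celsr3, had a CPM of 58.0, 67.7 and 46.9 across control libraries, 46.5, 39.8 and 59.6 across Fzd3 mutant libraries and 52.1, 61.1 and 54.8 across Celsr3 mutant libraries. The Fzd3 mutants overlapped with both other genotypes, at a difference from controls of -0.24 on the log2 scale (SE 0.15, limma adjusted P = 0.24). The value sums reads over the whole gene, so it does not check a deletion of an exon, and "Fzd3 mutants" means the libraries labelled so. Over all genes the root mean square log2 difference between a Fzd3 mutant library and a library of another genotype was 0.378 to 0.5004, against 0.174 to 0.276 between libraries of the same genotype and 0.260 to 0.326 between Celsr3 mutants and controls, so the Fzd3 mutants stood apart as a group. Mouse line, litter and batch are not given per library in the sources used here. They cannot be told apart from the genotype in any difference of the Fzd3 mutants. Emx1, a homeobox factor of the cortical lineage that checks the labelled tissue, was present in all 9 libraries at 23.4 to 38.4 CPM. Emx1 was lower in the Fzd3 mutants at -0.42 on the log2 scale (SE 0.10, limma adjusted P = 0.00963), with every Fzd3 mutant below every other library. It was at -0.72 to -0.31 over the 22 alternatives, and without moderation of the variances its limma adjusted P was 0.0557.

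In the Fzd3 mutants, 7 of the 10 deep layer genes passed a limma adjusted P of 0.05 against controls, beside 29.8% of all genes tested. The core regulators Bcl11b, Fezf2, Tbr1 and Sox5 fell together with Zfpm2, so 5 of 10 were lower beside 14.8% of all genes. Ldb2 and Nfe2l3 rose, so 2 of 10 were higher beside 15% of all genes. Over 22 alternatives of processing, Zfpm2 lost its call in 13 and Ldb2 in 2, and the other 5 of these genes kept theirs. The libraries of the Fzd3 mutants and controls did not overlap for 6 of the 10, beside 43.8% of all genes. The median log2 difference of the 10 genes was -0.12, and over all genes it was -0.000559. With 1 library left out, the median of the 10 genes ran from -0.17 without control 3 to -0.08 without Fzd3 mutant 2. With each library centred on the genes of all neurons, a scaling chosen after seeing the data that moved the median of all genes to -0.30, 6 of the 10 were called lower beside 61.6% of all genes, and 1 higher beside 4.76%. CPM is a share of the library, so in whole tissue fewer cells of a type, less RNA per cell and more RNA from other cells cannot be told apart. The study reported more Ctip2-positive cells in these mutants, with the same result for Tbr1. The mRNA of Bcl11b and Tbr1 went the other way here. Stained cells in sections and shares of tissue RNA are unlike measures, taken at partly unlike stages, and the reason was not tested.

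**Figure D1:**
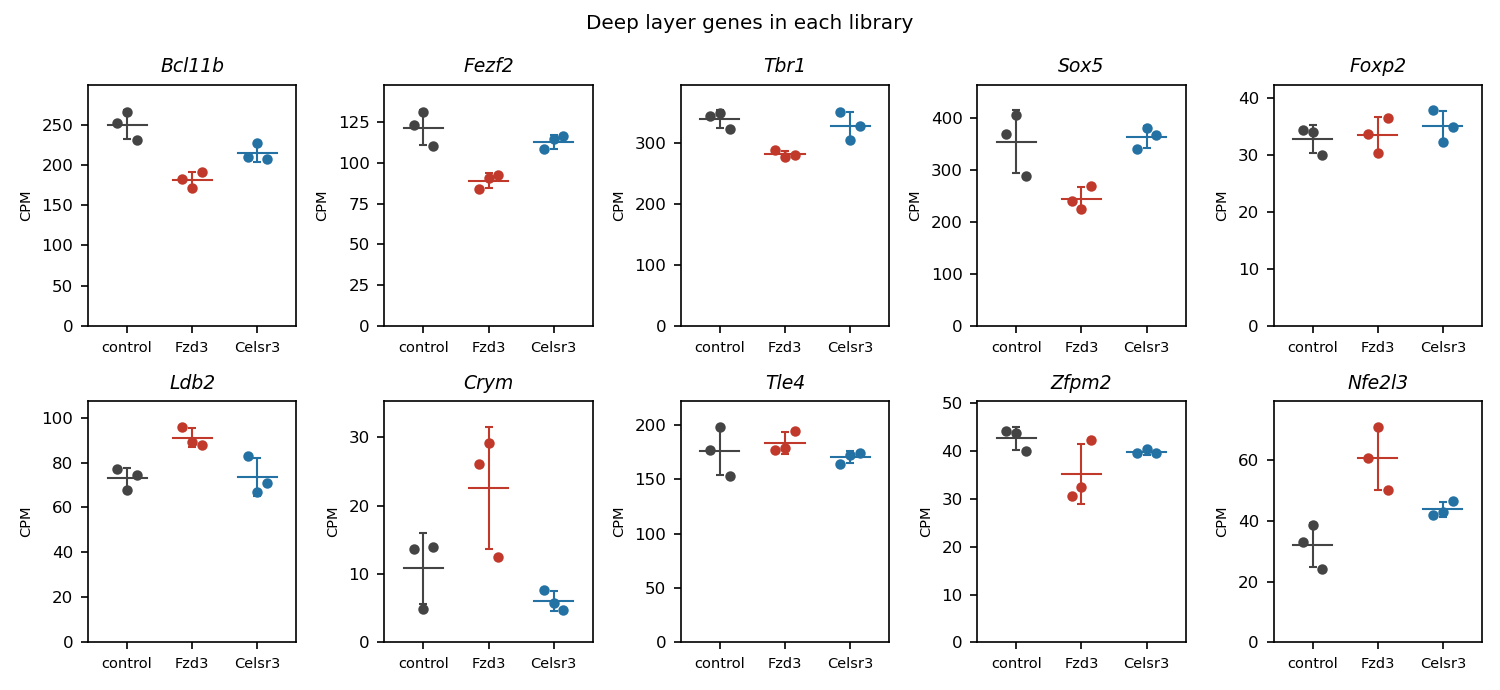
CPM of each deep layer gene in each library (points), with the mean (line) and SD (bar) of the 3 libraries of a genotype, on axes that start at 0. The Fzd3 mutants lie below all controls for Bcl11b, Fezf2, Tbr1 and Sox5, and above them for Ldb2 and Nfe2l3.

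Fezf2, the zinc finger factor that specifies neurons projecting to the brainstem and spinal cord (chr14:12342094-12348189, minus strand on GRCm38), was lower in the Fzd3 mutants. The CPM of Fezf2 was 123, 131 and 110.4 across control libraries, 84.1, 90.9 and 92.4 across Fzd3 mutant libraries and 108, 114 and 116 across Celsr3 mutant libraries. Every Fzd3 mutant was below every control and every Celsr3 mutant, and the Celsr3 mutants overlapped with the controls. Fezf2 fell by 0.44 on the log2 scale (SE 0.06, limma adjusted P = 0.000552) in the Fzd3 mutants. Bcl11b, the zinc finger factor that acts downstream of Fezf2 in corticospinal axon growth (chr12:107910403-108003602, minus strand), showed a graded order. The CPM of Bcl11b was 252, 266 and 230.3 across control libraries, 183, 171 and 191 across Fzd3 mutant libraries and 209, 227 and 207 across Celsr3 mutant libraries. The 3 genotypes did not overlap, with the Celsr3 mutants between the Fzd3 mutants and the controls. Bcl11b fell by 0.46 on the log2 scale (SE 0.06, limma adjusted P = 0.000351) in the Fzd3 mutants. The mean CPM of Bcl11b was 249.6 ± 18.0 (SD, n = 3) in controls and 215 ± 10.8 in Celsr3 mutants.

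Ldb2, Nfe2l3 and Crym, the other genes linked to layer 5, were not lower. Ldb2, an adaptor that binds LIM domain factors and is expressed in corticospinal neurons (chr5:44472132-44799680, minus strand), was higher in the Fzd3 mutants. The CPM of Ldb2 was 77.0, 67.9 and 74.4 across control libraries, 95.9, 89.3 and 87.8 across Fzd3 mutant libraries and 82.8, 67.0 and 70.7 across Celsr3 mutant libraries. Every Fzd3 mutant was above every other library, and the Celsr3 mutants overlapped with the controls. Ldb2 rose by 0.31 on the log2 scale (SE 0.08, limma adjusted P = 0.0104) in the Fzd3 mutants. Without moderation of the variances its limma adjusted P was 0.0574, and with each library centred on a list of genes of all neurons its difference was 0.02. Nfe2l3, a leucine zipper factor of the cap'n'collar family (chr6:51432670-51458768, plus strand), moved further. The CPM of Nfe2l3 was 33.1, 38.7 and 24.2 across control libraries, 60.7, 70.9 and 50.0 across Fzd3 mutant libraries and 41.8, 43.1 and 46.6 across Celsr3 mutant libraries. The Fzd3 mutants were highest and the controls lowest, and no genotype overlapped with another. Nfe2l3 rose by 0.92 on the log2 scale (SE 0.15, limma adjusted P = 0.00134) in the Fzd3 mutants. Crym, the thyroid hormone-binding mu-crystallin found in subcerebral neurons (chr7:120186380-120202111, minus strand), varied between libraries of the same genotype. The CPM of Crym was 13.7, 4.81 and 13.9 across control libraries, 26.1, 29.2 and 12.4 across Fzd3 mutant libraries and 7.60, 5.75 and 4.74 across Celsr3 mutant libraries. Control 2 was low among the controls. Fzd3 mutant 3 was low among the Fzd3 mutants and lay below control 1 and control 3, so the groups overlapped. The difference of Crym was 1.08 on the log2 scale (SE 0.39, limma adjusted P = 0.0558), and its SD over libraries within a genotype was larger than that of 99.5% of all genes. Crym passed the threshold at 1.32 without control 3 (limma adjusted P = 0.0367) and at 1.45 without Fzd3 mutant 3 (adjusted P = 0.0141), and was at 0.60 without control 2 (adjusted P = 0.185).

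Of the layer 6 genes, Tbr1, the T-box factor of corticothalamic neurons (chr2:61802930-61814114, plus strand), had the smallest SD between libraries of a genotype among the 10, 0.0711 on the log2 scale. The CPM of Tbr1 was 344, 349 and 323 across control libraries, 287, 277 and 279.9 across Fzd3 mutant libraries and 351, 304 and 327 across Celsr3 mutant libraries. Every Fzd3 mutant was below every other library, and the Celsr3 mutants spanned more than the range of the controls. Tbr1 fell by 0.27 on the log2 scale (SE 0.05, limma adjusted P = 0.00345) in the Fzd3 mutants. Sox5, a SoxD factor that times the appearance of the deep layer types (chr6:143828425-144781977, minus strand), moved more but with more spread. The CPM of Sox5 was 369, 406 and 288 across control libraries, 240.1, 225 and 269 across Fzd3 mutant libraries and 341, 382 and 368 across Celsr3 mutant libraries. The Fzd3 mutants were below every other library, and control 3 was the lowest of the controls. Sox5 fell by 0.52 on the log2 scale (SE 0.11, limma adjusted P = 0.0044) in the Fzd3 mutants. An antisense gene, Sox5os1, shares 9.25% of the annotated exon bases of Sox5 and is not listed in the table, and reads of a gene and its antisense partner cannot be told apart unless the counting used strand, which is not given in the sources used here. Zfpm2, a cofactor of GATA factors that is expressed in corticothalamic neurons (chr15:40655035-41104592, plus strand), lay near the threshold. The CPM of Zfpm2 was 44.2, 43.9 and 39.9 across control libraries, 30.7, 32.6 and 42.3 across Fzd3 mutant libraries and 39.5, 40.5 and 39.5 across Celsr3 mutant libraries. Fzd3 mutant 3 lay within the range of the controls and the other 2 Fzd3 mutants lay below it. Zfpm2 fell by 0.29 on the log2 scale (SE 0.10, limma adjusted P = 0.0484) in the Fzd3 mutants, and its limma adjusted P was 0.06 to 0.186 when control 1, control 2, Fzd3 mutant 1, Fzd3 mutant 2 or any Celsr3 mutant was left out. It was 0.0515 to 0.14 with libraries rescaled to a common total, only the 2 genotypes compared, the replicate block, no trend, no moderation or voom weights. Limma with voom weights on the recovered reads called 6 of the 10 genes in place of 7, without Zfpm2, beside 28.7% of all genes.

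Foxp2, a forkhead factor of layer 6 (chr6:14901349-15441977, plus strand), and Tle4, a Groucho corepressor of corticothalamic neurons (chr19:14448150-14598051, minus strand), did not pass the threshold. The CPM of Foxp2 was 34.3, 34.0 and 30.0 across control libraries, 33.6, 30.3 and 36.5 across Fzd3 mutant libraries and 37.8, 32.3 and 34.9 across Celsr3 mutant libraries. The 3 genotypes overlapped, and the 95% confidence interval of the log2 difference of Fzd3 mutants from controls was -0.16 to 0.21. The CPM of Tle4 was 177, 198 and 153 across control libraries, 177, 178 and 195 across Fzd3 mutant libraries and 164, 172 and 175 across Celsr3 mutant libraries. The Fzd3 mutants lay within the range of the controls, and the interval was -0.11 to 0.24. Leaving out 1 library gave -0.03 without Fzd3 mutant 3, -0.03 without control 3 and 0.10 without Fzd3 mutant 2 for Foxp2, and -0.03 without control 3 and 0.15 without control 2 for Tle4. Centring each library on the genes of all neurons shifted both with the median of all genes, which it moved to -0.30, to -0.27 for Foxp2 (limma adjusted P = 0.0284) and -0.23 for Tle4 (limma adjusted P = 0.0652).

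**Figure D2:**
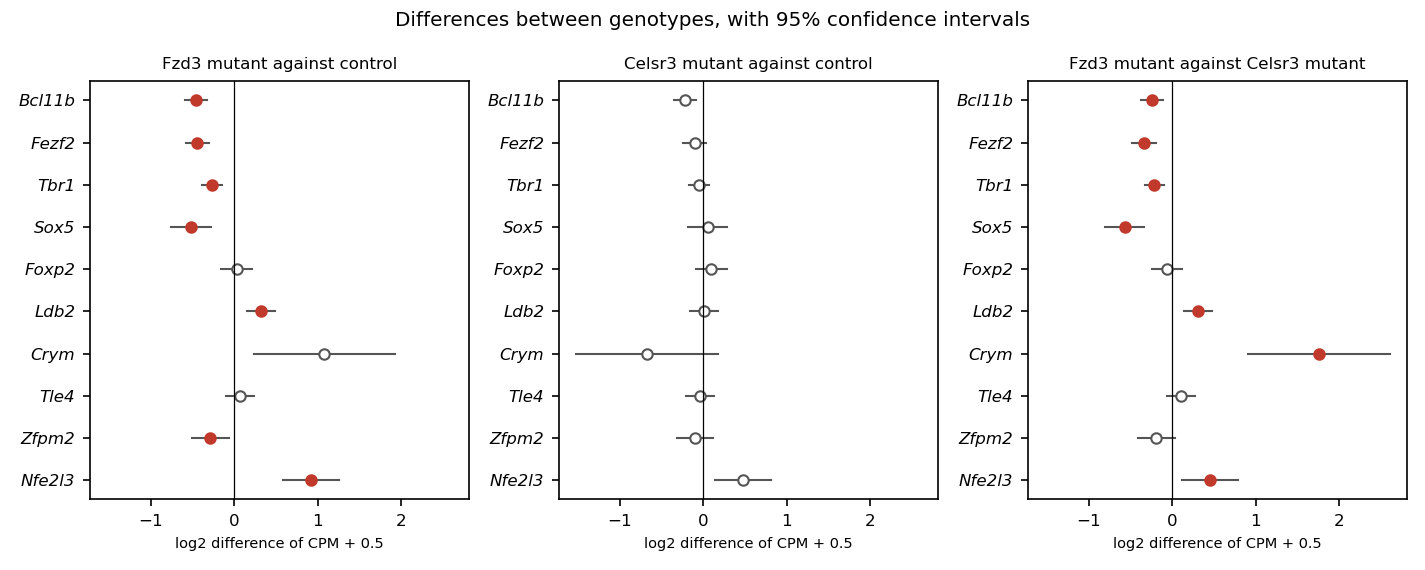
Log2 difference (point) of each deep layer gene with its 95% confidence interval (line) in the 3 comparisons, with filled points where the limma adjusted P was below 0.05. Against controls 7 points are filled for the Fzd3 mutants and 0 for the Celsr3 mutants.

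Because several of these genes moved together, the RefSeq sequences before their starts were read for short motifs. Sequences from GRCm38.p6 matched 6 of the 10 genes, at 7 starts. The 250 bases before each start were searched on both strands for CTTTGA (TCF/LEF, the factors of Wnt signalling), TGGGAA (RBPJ, the factor of Notch signalling), AACAAT (SOX), GGTGTGA (T-box), TGACCA (BCL11) and CAGATG (a neurogenic E-box). Shown 5′ to 3′ with matches in capitals are 2 genes that fell together and carry a match, 1 that fell without a match, and Nfe2l3, which rose.
Fezf2, chr14:12345960-12346115, minus strand: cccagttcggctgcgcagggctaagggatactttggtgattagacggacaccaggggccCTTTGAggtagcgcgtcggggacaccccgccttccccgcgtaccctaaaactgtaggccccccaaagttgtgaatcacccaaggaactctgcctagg
Tbr1, chr2:61804203-61804452, plus strand: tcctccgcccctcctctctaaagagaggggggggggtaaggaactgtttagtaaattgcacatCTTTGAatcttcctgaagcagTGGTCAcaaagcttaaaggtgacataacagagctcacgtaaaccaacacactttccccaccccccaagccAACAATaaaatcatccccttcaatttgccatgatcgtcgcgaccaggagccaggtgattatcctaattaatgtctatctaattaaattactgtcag
Sox5, chr6:143947107-143947356, minus strand: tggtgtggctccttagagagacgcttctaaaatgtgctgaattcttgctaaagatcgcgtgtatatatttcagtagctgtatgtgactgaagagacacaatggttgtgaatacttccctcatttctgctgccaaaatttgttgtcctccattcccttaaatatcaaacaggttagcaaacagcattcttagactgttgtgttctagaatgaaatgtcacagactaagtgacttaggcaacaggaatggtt
Nfe2l3, chr6:51432419-51432668, plus strand: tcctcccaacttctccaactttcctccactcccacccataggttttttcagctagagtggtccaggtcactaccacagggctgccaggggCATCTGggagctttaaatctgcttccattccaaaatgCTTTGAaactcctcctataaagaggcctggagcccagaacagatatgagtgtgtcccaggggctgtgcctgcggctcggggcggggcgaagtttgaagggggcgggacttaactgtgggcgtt
The Fezf2 sequence lies in an intron of another Fezf2 transcript and ends where the GENCODE annotation has a first exon, the Tbr1 sequence lies in an exon of a non-coding Tbr1 transcript, the Sox5 sequence lies in an intron of longer Sox5 transcripts, and the Nfe2l3 sequence lies before the gene. CTTTGA occurred before Fezf2, Tbr1, Nfe2l3 and Bcl11b, and in 13.8% of all 32851 sequences of the same length. The Bcl11b match, 89 bases before the RefSeq start, lies in its annotated first exon and is not shown. Tbr1 also held AACAAT and, on the other strand, TGACCA, which occurred in 9.42% and 11.4% of all sequences. Nfe2l3 also held CAGATG on the other strand, found in 14.4% of all sequences, and 1 start of Tle4 held AACAAT on the other strand. TGGGAA and GGTGTGA, found in 21.6% and 3.33% of all sequences, occurred before none of the 6 genes. The genes that carry CTTTGA include some that fell and 1 that rose, and a match is a description of letters only.

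In the Celsr3 mutants, 0 of the 10 deep layer genes passed a limma adjusted P of 0.05 against controls, beside 0.307% of all genes. At an unadjusted P below 0.05 there were 2 of the 10, beside 5.45% of all genes, and limma with voom weights on the recovered reads also called 0. The libraries of the Celsr3 mutants and controls did not overlap for 2 of the 10, beside 10.4% of all genes, namely Bcl11b and Nfe2l3. Bcl11b was lower in the Celsr3 mutants at -0.22 on the log2 scale (SE 0.06, limma adjusted P = 0.462), with a 95% confidence interval of -0.35 to -0.08. Nfe2l3 was higher at 0.47 on the log2 scale (SE 0.15, limma adjusted P = 0.669), with an interval of 0.13 to 0.81, and at 0.29 without control 3. Both intervals lie on 1 side of 0 before adjustment, and neither gene passed over the whole table. The intervals were -0.24 to 0.04 for Fezf2, -0.17 to 0.06 for Tbr1 and -0.19 to 0.29 for Sox5. The interval of Crym was -1.53 to 0.17, the widest of the 10, around a difference of -0.68 that was -1.15 without control 2, -0.45 without control 1 and -0.43 without control 3. The other members were at log2 differences of -0.10 for Zfpm2, -0.04 for Tle4, 0.00 for Ldb2 and 0.09 for Foxp2. With 1 library left out, Foxp2 was at 0.03 to 0.15. The sign turned without control 3 for Sox5, without control 2 for Tle4, and without control 2 or Celsr3 mutant 1 for Ldb2, at -0.09, 0.05, and -0.05 or -0.08. The Fzd3 and Celsr3 mutants were compared with the same control libraries, so these comparisons are not independent.

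The direct test between the mutants does not use the controls in the difference. Against the Celsr3 mutants, 7 of the 10 deep layer genes passed in the Fzd3 mutants, beside 29.6% of all genes, with 4 lower beside 14.3% and 3 higher beside 15.3%. The same core regulators were lower. Of the 7, Fezf2 and Sox5 kept their calls under all 22 alternatives, and the calls were lost in 9 for Nfe2l3, 4 for Bcl11b, 3 for Ldb2 and 1 each for Tbr1 and Crym. Sox5 was at -0.57 on the log2 scale (SE 0.11, limma adjusted P = 0.00287), and Fezf2 at -0.34 on the log2 scale (SE 0.06, limma adjusted P = 0.00275). Bcl11b was at -0.24 on the log2 scale (SE 0.06, limma adjusted P = 0.0124) and lost the call without Fzd3 mutant 2 (adjusted P = 0.0554) or Celsr3 mutant 2 (adjusted P = 0.0549). Tbr1 was at -0.22 on the log2 scale (SE 0.05, limma adjusted P = 0.0107). With the replicate block, which drops Celsr3 mutant 4, neither Tbr1 nor Bcl11b passed. They were then at -0.20 (limma adjusted P = 0.0771) and -0.26 (limma adjusted P = 0.0709). Crym was higher at 1.76 on the log2 scale (SE 0.39, limma adjusted P = 0.00623), with no overlap between the mutants. Ldb2 was higher at 0.31 on the log2 scale (SE 0.08, limma adjusted P = 0.011) and lost the call without Fzd3 mutant 1 (adjusted P = 0.051). Nfe2l3 was higher at 0.45 on the log2 scale (SE 0.15, limma adjusted P = 0.0475), and its limma adjusted P was 0.0638 to 0.175 when control 1, Fzd3 mutant 1, Fzd3 mutant 2 or any Celsr3 mutant was left out. Zfpm2 did not pass, at -0.19, and was at -0.33 without Fzd3 mutant 3 (limma adjusted P = 0.00391) and -0.10 without Fzd3 mutant 1 (adjusted P = 0.511). Foxp2 and Tle4 were at -0.06 and 0.11, with intervals of -0.25 to 0.12 and -0.06 to 0.28, and Foxp2 was at 0.00 without Fzd3 mutant 2. With 1 library left out, Foxp2 was at -0.13 to 0.00 and Tle4 at 0.06 to 0.13. Without moderation of the variances 3 of the 10 passed limma between the mutants, beside 22.4% of all genes. With each library centred on the genes of all neurons, which moved the median of all genes to -0.31, 6 were called lower beside 63.2% of all genes, and 1 higher beside 4.83%. That scaling took the call from Ldb2, at 0.00, and from Nfe2l3, at 0.14 (limma adjusted P = 0.45). It added calls for Foxp2, at -0.37 (limma adjusted P = 0.00544), and for Zfpm2, at -0.50 (limma adjusted P = 0.0034).

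Levels of different genes were compared as CPM per kilobase of annotated exons. In the controls Tbr1 had the highest level of the 10, at 61.7 ± 2.56 CPM per kilobase (SD, n = 3), followed by Fezf2 at 39.9 ± 3.46. Tle4 at 30.9 ± 3.89 and Bcl11b at 30.8 ± 2.22 CPM per kilobase did not differ beyond their spread, nor did Sox5 at 24.6 ± 4.21 and Ldb2 at 21.9 ± 1.40. Nfe2l3 was at 10.8 ± 2.45, Zfpm2 at 4.47 ± 0.251, Crym at 3.19 ± 1.53 and Foxp2 at 1.84 to 2.097 CPM per kilobase, and the ranges of the last 2 overlapped. In the Fzd3 mutants Tbr1 was again highest, at 51.3 ± 0.976 CPM per kilobase. There Ldb2, at 27.3 ± 1.28 CPM per kilobase, was above Bcl11b, at 22.4 ± 1.24, whereas in the controls and the Celsr3 mutants it was below. Sox5 in the Fzd3 mutants was at 17.0 ± 1.55 CPM per kilobase and Nfe2l3 at 20.4 ± 3.50, with overlapping libraries. The Celsr3 mutants had the order of the controls down to Zfpm2, with Foxp2 above Crym at the end and overlapping libraries of those 2. The exon lengths join all annotated transcripts of a gene, which lowers the value of genes with long or many transcripts such as Sox5 and Foxp2.

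Ratios of CPM within a library do not depend on scaling between libraries, and show how the deep layer genes stood to each other. The ratio of Sox5 to Tle4, both genes of layer 6, was 2.08, 2.06 and 1.88 across control libraries, 1.36, 1.26 and 1.38 across Fzd3 mutant libraries and 2.08, 2.22 and 2.11 across Celsr3 mutant libraries. It was lowest in the Fzd3 mutants with no overlap, and the mean differed from controls by -33.5% (2-sided exact permutation P = 0.1, the smallest that 3 against 3 libraries can give). The Celsr3 mutants overlapped with the controls in that ratio, at 6.49% (exact permutation P = 0.2). The study took the protein of Bcl11b as a marker of layers 5 and 6 and Tbr1 as one of layer 6, so their ratio does not compare those layers. The ratio of Bcl11b to Tbr1 was 0.734, 0.762 and 0.714 across control libraries, 0.637, 0.618 and 0.682 across Fzd3 mutant libraries and 0.597, 0.747 and 0.635 across Celsr3 mutant libraries. The Fzd3 mutants were below the controls, at -12.3% (exact permutation P = 0.1), and the Celsr3 mutants, at -10.4%, overlapped with the controls (exact permutation P = 0.3) and with the Fzd3 mutants. The ratio of Fezf2 to Tbr1 was 0.357, 0.376 and 0.342 across control libraries, 0.293, 0.329 and 0.330 across Fzd3 mutant libraries and 0.308, 0.377 and 0.356 across Celsr3 mutant libraries. Its Fzd3 mutants were again below the controls, at -11.5% (exact permutation P = 0.1), and the Celsr3 mutants overlapped with the controls, at -3.22% (exact permutation P = 0.7). The ratio of Fezf2 to Bcl11b was 0.487, 0.494 and 0.479 across control libraries, 0.460, 0.532 and 0.484 across Fzd3 mutant libraries and 0.517, 0.504 and 0.561 across Celsr3 mutant libraries. The Fzd3 mutants overlapped with the controls, at 1.08% (exact permutation P = 0.9), whereas every Celsr3 mutant was above every control, at 8.30% (exact permutation P = 0.1). Of 7 ratios computed, these 4 are given. They were chosen after the values of the genes were seen, and adjustment over the 7 could only raise P from 0.1.

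**Figure D3:**
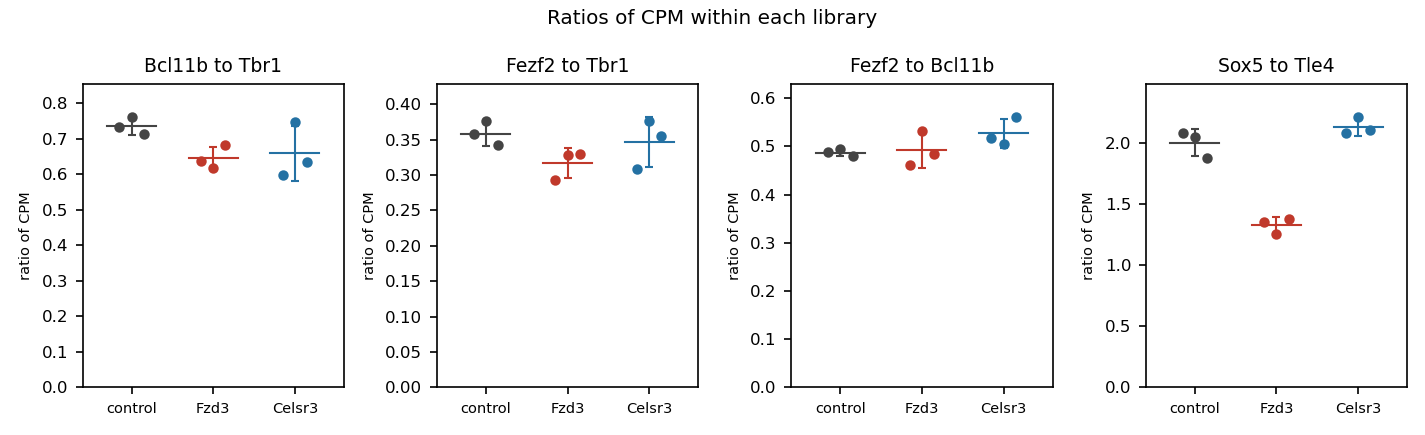
Ratio of CPM within each library (points) for 4 pairs of deep layer genes, with the mean (line) and SD (bar) of the 3 libraries of a genotype. The Fzd3 mutants lie below the controls without overlap for Bcl11b to Tbr1, Fezf2 to Tbr1 and Sox5 to Tle4, and overlap with them for Fezf2 to Bcl11b.

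Further genes of layers 5 and 6 differed in both directions in the Fzd3 mutants. Of 21 named, 19 were listed, and 8 rose and 3 fell, beside 15% and 14.8% of all genes, with a median log2 difference of 0.18 beside -0.000559 over all genes, and Pcp4 and Rbp4 were not listed. With each library centred on the genes of all neurons, 4 of the 19 were called higher beside 4.76% of all genes, and 9 lower beside 61.6%. S100a10, an annexin-binding protein of layer 5, was at 1.75 on the log2 scale, the adhesion protein Cntn6 at 1.55, and Thsd7b at 0.85. Sla, an adaptor protein with the highest control CPM of the list, was at 0.19, and its limma adjusted P was 0.0867 to 0.139 without control 2, control 3 or any Fzd3 mutant. In the Celsr3 mutants 0 of 19 passed by limma, with 2 at an unadjusted P below 0.05, beside 5.45% of all genes, and 0 by limma with voom weights. Among 14 regulators of projection neuron identity 5 rose and 5 fell (median -0.04), with Lmo4 at 0.77 and Nfia at -0.49. Sox4, the highest of these in controls, was at -0.17 and did not pass, and was at -0.27 with a limma adjusted P of 0.00239 without control 3 and at -0.09 without control 2. Among upper layer genes 6 of 15 rose and 2 fell (median 0.15), with the activin subunit gene Inhba at 0.86 and Dok5 at 0.79, and Nectin3, which the table holds under its older symbol Pvrl3, was not counted. Centring on the genes of all neurons called 3 and 8 of the regulators and 4 and 7 of the upper layer genes higher and lower. Over the 22 alternatives, which called 4.76% to 16.2% of all genes higher and 10.1% to 61.6% lower, the counts were 4 to 8 higher and 2 to 9 lower for the further layer 5 and 6 genes, 3 to 6 higher and 1 to 8 lower for the regulators, and 4 to 7 higher and 0 to 7 lower for the upper layer genes. With a mean of 5 CPM as a filter the median of the further layer 5 and 6 genes was 0.11. Leaving out 1 library moved some of the counts of higher and lower genes, and some medians. For the further layer 5 and 6 genes it gave 8 and 5 without control 3, with a median of 0.10. For the regulators it gave 5 and 3 without control 1, 6 and 2 without control 2, 4 and 3 without Fzd3 mutant 1 or Fzd3 mutant 3, and 5 and 2 without Fzd3 mutant 2. It gave them a median of 0.02 without control 2 and -0.10 without control 3. For the upper layer genes it gave 6 and 0 without control 1, control 2 or Fzd3 mutant 2, 6 and 1 without Fzd3 mutant 1, and 7 and 0 without Fzd3 mutant 3.

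The differences of the deep layer genes stood beside differences in genes of other cell types, for which 15% of all genes higher and 14.8% lower are the shares to compare with. The 10 deep layer genes summed to 1468, 1539.9 and 1287 CPM across control libraries, 1218, 1194 and 1256 CPM across Fzd3 mutant libraries and 1383, 1387 and 1389 CPM across Celsr3 mutant libraries, and every Fzd3 mutant was below every other library. Of radial glia and progenitor genes 8 of 10 fell in the Fzd3 mutants and 0 rose (median -0.64). That list summed to 1839, 1939 and 1801 CPM across control libraries, 1292, 1376 and 1296 CPM across Fzd3 mutant libraries and 1665, 1755 and 1857 CPM across Celsr3 mutant libraries. The Fzd3 mutants were lowest without overlap, and over all libraries Fabp7 had the highest CPM of the list. Vim, an intermediate filament and the highest in controls, was at -0.62, the proliferation genes Mki67 and Top2a were at -0.81 and -0.79, and the progenitor factor Pax6 was at -0.70. Of intermediate progenitor genes 6 of 6 fell (median -0.71), and the list summed to 412, 439 and 363 CPM across control libraries, 232, 253 and 288 CPM across Fzd3 mutant libraries and 399.7, 456 and 464 CPM across Celsr3 mutant libraries. Eomes, their T-box factor and highest gene, was at -0.67, with Neurog1 at -1.49, Neurog2 at -0.86 and Btg2 at -0.76. Of genes of all neurons 7 of 13 rose and 0 fell (median 0.26), with Tubb3 not listed, and the list summed to 7128, 6959.7 and 7126 CPM across control libraries, 8035, 7660.0 and 7774 CPM across Fzd3 mutant libraries and 7262, 7077 and 6741 CPM across Celsr3 mutant libraries. The neurofilament genes Nefl and Nefm were at 1.27 and 0.70 and the synaptotagmin gene Syt1 at 0.56, while Dcx, a microtubule protein gene of immature neurons and the highest of the list, did not pass at 0.03 (0.00 without control 3 and 0.07 without Fzd3 mutant 2). Of genes of all projection neurons 3 of 9 rose and 4 fell (median -0.14), with Neurod1 not listed, and the sum was 2699.5 to 2881 CPM in controls, 3199 to 3243 CPM in Fzd3 mutants and 2891 to 3012 CPM in Celsr3 mutants. Neurod6, the highest of them, was at -0.22, Mef2c at 0.70 and Bhlhe22 at 0.44. Centred on the genes of all neurons, the higher and lower counts were 0 and 10 radial glia and progenitor genes, 0 and 6 intermediate progenitor genes, 4 and 6 genes of all neurons and 3 and 5 genes of all projection neurons, beside 4.76% and 61.6% of all genes, and the mean of the neuron list is then fixed by construction. Over the 22 alternatives they were 0 higher and 7 to 10 lower for radial glia and progenitor genes, and 0 higher and 5 to 6 lower for intermediate progenitor genes. They were 4 to 7 higher and 0 to 6 lower for genes of all neurons, and 3 higher and 1 to 5 lower for genes of all projection neurons. Leaving out 1 library moved none of these counts by more than 1.5 times. It gave medians of 0.17 for genes of all neurons without control 2, and -0.09 for genes of all projection neurons without control 3. The part of these differences in the values of the deep layer genes was not tested.

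**Figure D4:**
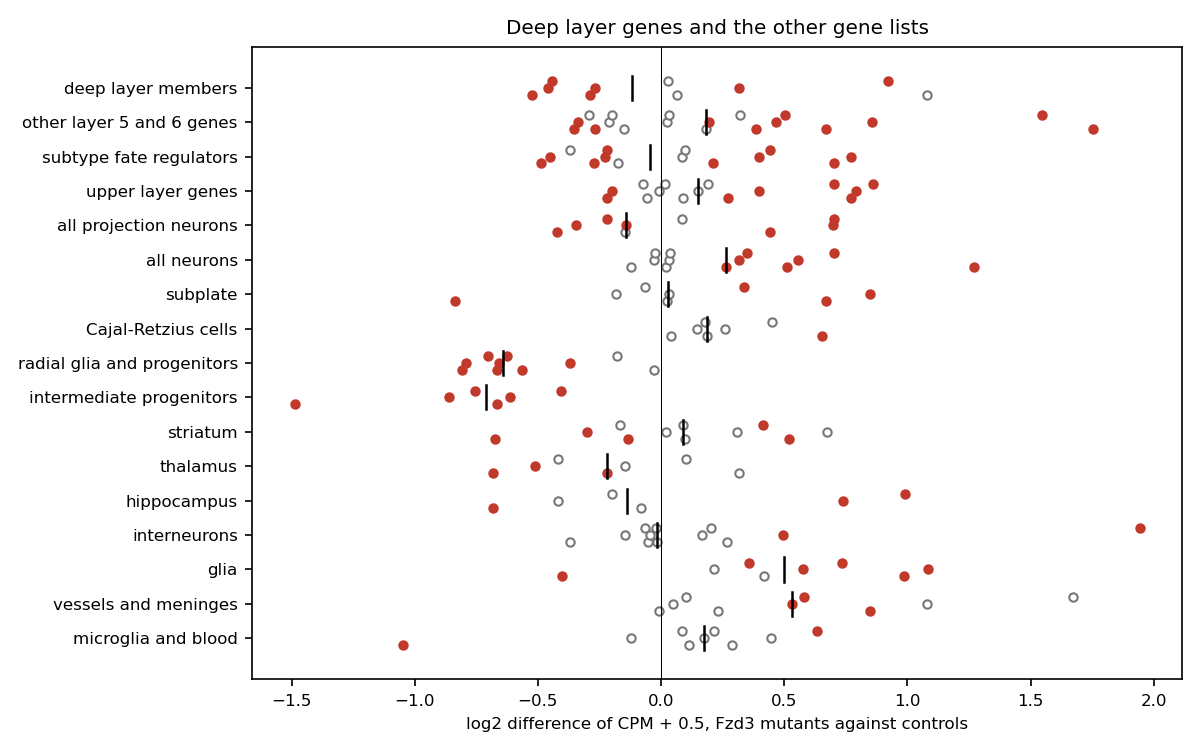
Log2 difference of Fzd3 mutants from controls for each gene (point) of the deep layer genes and of 16 other lists, with filled points where the limma adjusted P was below 0.05 and the median of each list as a line. The deep layer genes lie on both sides of 0, and the progenitor lists lie below 0.

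Striatal neurons also express Bcl11b and Foxp2, so genes of neurons next to the cortical plate were read in the same way, with sums over each list given as the range over the libraries of a genotype. Of striatal genes 2 of 11 rose and 3 fell (median 0.09), with Drd2, Isl1, Zfp503, Penk, Tac1, Six3, Ikzf1 and Gpr6 not listed, and the sum was 652 to 685 CPM in controls, 670.1 to 691 CPM in Fzd3 mutants and 665 to 689 CPM in Celsr3 mutants. Foxp1 was at 0.52 and Meis2, the highest of the list, at -0.14. Ebf1 at -0.67 and Drd1a at 0.41 (an older symbol of Drd1) lay near the threshold, and the limma adjusted P was 0.0556 to 0.0934 for Ebf1 without control 2, control 3 or any Fzd3 mutant, and 0.0549 to 0.112 for Drd1a without any control or any Fzd3 mutant. Without control 3 the difference of Ebf1 was -0.39. Of subplate genes 3 of 8 rose and 1 fell (median 0.03), with Cplx3 not listed, and the sum was 162 to 180.2 CPM in controls, 199 to 203 CPM in Fzd3 mutants and 163 to 168 CPM in Celsr3 mutants. Nr4a2, the highest over all libraries, was at 0.67, Ctgf (also named Ccn2) at 0.85 and Lpar1 at -0.84, and Hs3st4, the highest in controls, did not pass at 0.02 (-0.06 without control 3, -0.01 without Fzd3 mutant 3 and 0.07 without control 2). Of Cajal-Retzius cell genes 1 of 7 rose and 0 fell (median 0.18), and the sum was 516 to 557 CPM in controls, 514 to 733 CPM in Fzd3 mutants and 417 to 523 CPM in Celsr3 mutants. Ndnf was at 0.65, and Reln, the highest, did not pass at 0.14 (-0.0028 without Fzd3 mutant 3 and 0.27 without Fzd3 mutant 2). Of interneuron genes 2 of 12 rose and 0 fell (median -0.02), and the sum was 329 to 365 CPM in controls, 355 to 452 CPM in Fzd3 mutants and 276 to 343 CPM in Celsr3 mutants. Npy was at 1.94 and Maf at 0.50, and Dlx1, the highest, did not pass at -0.06 (-0.14 without Fzd3 mutant 1, 0.00 without control 3 and 0.04 without Fzd3 mutant 3). The centring on genes of all neurons gave higher and lower counts of 1 and 5 striatal genes, 2 and 4 subplate genes, 1 and 0 Cajal-Retzius cell genes and 1 and 7 interneuron genes, beside 4.76% and 61.6% of all genes, with Dlx1 at -0.36 (limma adjusted P = 0.00217) called and Maf at 0.20 (adjusted P = 0.068) and Drd1a at 0.12 (adjusted P = 0.443) no longer called. All 22 alternatives gave counts of 1 to 3 higher and 1 to 5 lower for striatal genes, 2 to 3 higher and 1 to 4 lower for subplate genes, 1 to 2 higher and 0 lower for Cajal-Retzius cell genes, and 1 to 3 higher and 0 to 7 lower for interneuron genes. Leaving out 1 library moved counts of higher and lower genes, or the size or sign of a median. For striatal genes it gave 1 and 3 without control 1, 1 and 1 without control 2 or any Fzd3 mutant, and 2 and 1 without control 3. It gave them a median of 0.02 without control 1, 0.05 without Fzd3 mutant 1 and 0.13 without control 2. For subplate genes it gave a median of -0.0018 without Fzd3 mutant 3 and 0.16 without control 3. For Cajal-Retzius cell genes it gave 2 and 0 without Fzd3 mutant 1 or Fzd3 mutant 2, and a median of 0.28 without control 3. For interneuron genes it gave a median of -0.07 without control 1, 0.02 without control 2, 0.04 without control 3 and 0.06 without Fzd3 mutant 3.

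The remaining lists cover neighbouring regions and cells outside the neuronal lineage that a dissected cortex can hold beside the deep layer neurons. Of thalamic genes 0 of 7 rose and 3 fell (median -0.22), with Gbx2 not listed, and the sum was 247 to 269 CPM in controls, 220.1 to 224 CPM in Fzd3 mutants and 240.0 to 271 CPM in Celsr3 mutants. Most of that sum was Lhx2, at a mean of 185 CPM in controls, and its difference is also the median. Lhx2 is on the lists of regulators and upper layer genes too, and Slc17a6 on that of all projection neurons. The sum and median therefore do not measure thalamic tissue alone. Lhx9 was at -0.68, Tcf7l2 at -0.51 and Lhx2, the highest, at -0.22. All 3 lay near the threshold, and the limma adjusted P was 0.0606 to 0.0699 for Lhx9 without control 3, Fzd3 mutant 2 or Fzd3 mutant 3, 0.0634 to 0.158 for Tcf7l2 without control 1, control 2, Fzd3 mutant 1, Fzd3 mutant 2 or Celsr3 mutant 2, and 0.0531 to 0.0933 for Lhx2 without control 1, control 2 or any Fzd3 mutant. Of hippocampal genes 2 of 6 rose and 1 fell (median -0.14), with Wnt8b not listed, and the sum was 171 to 206 CPM in controls, 173 to 195 CPM in Fzd3 mutants and 154 to 179.9 CPM in Celsr3 mutants. Prox1 was at 0.99 and Man1a at 0.74, and Zbtb20, the highest, did not pass at -0.20 (-0.31 without Fzd3 mutant 3 and -0.09 without Fzd3 mutant 2), with a limma adjusted P of 0.0383 without Fzd3 mutant 3. Of glial genes 5 of 8 rose and 1 fell (median 0.50), with Aqp4 and Gfap not listed, and the sum was 176 to 216 CPM in controls, 195 to 234 CPM in Fzd3 mutants and 176 to 185 CPM in Celsr3 mutants. Olig1 was at 1.08, Olig2 at 0.98, Pdgfra at 0.73 and Aldoc, the highest, at -0.40. The limma adjusted P was 0.0869 to 0.122 for Olig2 without control 1, control 2, Fzd3 mutant 1 or Fzd3 mutant 2, and 0.0895 to 0.155 for Pdgfra without control 1, control 2, Fzd3 mutant 1 or Fzd3 mutant 2. Of vessel and meningeal genes 3 of 9 rose and 0 fell (median 0.53), with Lum and Aldh1a2 not listed, and the sum was 108 to 117 CPM in controls, 143 to 169.9 CPM in Fzd3 mutants and 111 to 229 CPM in Celsr3 mutants. Flt1 was at 0.85, Cldn5 at 0.53 and Kdr, the highest, at 0.58, and the top of the Celsr3 range came from Celsr3 mutant 4. Of microglial and blood genes 1 of 9 rose and 1 fell (median 0.17), with Ptprc and Hbb-b1 not listed, and the sum was 1787 to 2063 CPM in controls, 1596 to 2481 CPM in Fzd3 mutants and 1612 to 2569 CPM in Celsr3 mutants. Csf1r was at 0.63, and Hba-a1, the highest, did not pass at 0.17 (0.06 without Fzd3 mutant 2 and 0.36 without Fzd3 mutant 3). Hbb-y was at -1.05, and its limma adjusted P was 0.052 to 0.127 without control 1, control 2 or any Fzd3 mutant. Higher and lower counts under the centring on genes of all neurons were 0 and 5 thalamic genes, 2 and 3 hippocampal genes, 2 and 1 glial genes, 1 and 0 vessel and meningeal genes and 1 and 1 microglial and blood genes, beside 4.76% and 61.6% of all genes. There Zbtb20 was called at -0.50 (limma adjusted P = 0.00437), and Kdr at 0.28 (adjusted P = 0.064), Cldn5 at 0.24 (adjusted P = 0.146) and Pdgfra at 0.43 (adjusted P = 0.0974) were no longer called. The 22 alternatives gave 0 higher and 0 to 5 lower for thalamic genes, 2 higher and 0 to 3 lower for hippocampal genes, 1 to 6 higher and 1 lower for glial genes, 1 to 5 higher and 0 lower for vessel and meningeal genes, and 1 to 2 higher and 0 to 1 lower for microglial and blood genes, and without moderation of the variances Cldn5 had a limma adjusted P of 0.0526. With a mean of 5 CPM as a filter, which kept 4 hippocampal genes, their median was 0.33. Here too leaving out 1 library moved counts of higher and lower genes, and medians. For thalamic genes it gave 0 and 1 without control 1 or Fzd3 mutant 1, and 0 and 0 without Fzd3 mutant 2. For hippocampal genes it gave 2 and 0 without Fzd3 mutant 2, and 2 and 2 without Fzd3 mutant 3. It gave them a median of -0.21 without control 1 and -0.03 without control 3. For glial genes it gave 1 and 1 without control 1, control 2, Fzd3 mutant 1 or Fzd3 mutant 2. For vessel and meningeal genes it gave 5 and 0 without Celsr3 mutant 4. For microglial and blood genes it gave 2 and 0 without control 1 or Fzd3 mutant 3, 1 and 0 without control 2, Fzd3 mutant 1 or Fzd3 mutant 2, and 2 and 1 without Celsr3 mutant 1. It gave them a median of 0.06 without Fzd3 mutant 2 and 0.36 without Fzd3 mutant 3. In the Celsr3 mutants 0 of 133 genes of the 15 lists other than those of layers 5 and 6 passed limma against controls, with 23 at an unadjusted P below 0.05, beside 5.45% of all genes, and 0 by limma with voom weights. The part of these cells in the values of the deep layer genes was not tested.

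The genes most like Bcl11b, Tbr1 and Fezf2 were found by the root mean square difference of mean-centred log2 profiles over the 9 libraries, among genes that averaged 1 CPM or more. Nearest to Bcl11b were Irs1 (0.0513), Sesn3 (0.0543) and Tfdp2 (0.0564). Nearest to Tbr1 were Gm10052 (0.0341), Zfp553 (0.0343) and G3bp1 (0.0388). Among the 3 nearest to Fezf2 were Rfwd3 (0.0348) and Cep192 (0.0425). Irs1, an adaptor of insulin signalling, had a CPM of 50.1, 55.5 and 49.4 across control libraries, 38.5, 35.2 and 42.6 across Fzd3 mutant libraries and 43.3, 49.9 and 45.4 across Celsr3 mutant libraries. Its Fzd3 mutants were below every other library, as for Bcl11b, and its Celsr3 mutants overlapped with the controls, unlike those of Bcl11b.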

How the data were processed

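RNA sequencing of E16.5 cortex was analysed from 1 table of 14670 genes in 9 libraries, whose CPM values the authors had computed and deposited. The values sum to 990141 to 1012199 per library, and the lowest mean of a gene is 0.540 CPM. The submitters' processing notes name FastQC, TopHat, Bowtie, Cufflinks 2.1.1, TopHat2 and edgeR 2.12, and the builds GRCm38 and GRCh37, without roles. The labels name Trizol and the methods RNeasy for RNA extraction. Groups came from the labels. Log2(CPM + 0.5) was fitted with limma 3.58.1 in R 4.3.3 (trend, all 9 libraries, no block) over genes averaging 0.5 CPM or more, which kept all 14670, with Benjamini-Hochberg adjustment over all of them and a threshold of 0.05. The log2 scale understates differences of low genes. The fit was tested on simulated data. Tables and figures used Python 3.11.15, numpy 2.4.6, pandas 2.3.3 and matplotlib 3.10.9, and positions came from GENCODE M21 on GRCm38. The steps of the CPM values gave whole reads for 100% of values within 0.05 reads. The floor of 3 reads covers counting error only. Members and lists were chosen with earlier results of these data known, and the ratios and motifs after the members' values were seen. Genes named from a list were its highest in controls, the up to 3 largest log2 differences past the threshold in Fzd3 mutants, and any past it in Celsr3 mutants. Values of some of these genes are not reported here. Alternatives were other pseudocounts (0.1 and 1 CPM), filters, scalings, variance models, a replicate block, voom weights, and each library left out. The alternative without a filter repeated the main fit.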

Additional observations from a re-analysis of the deposited data

Results flagged for a closer look

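For 7 of the 10 deep layer genes the Fzd3 and Celsr3 mutants differed in the direct test between them by limma, beside 29.6% of all genes. The log2 difference of Fzd3 mutants from Celsr3 mutants was -0.24 for Bcl11b, -0.34 for Fezf2, -0.22 for Tbr1 and -0.57 for Sox5. It was 0.31 for Ldb2, 1.76 for Crym and 0.45 for Nfe2l3. Only Fezf2 and Sox5 kept their calls under all 22 alternatives, and calls were lost in 9 for Nfe2l3, 4 for Bcl11b and 3 for Ldb2. Without moderation of the variances 3 of the 10 passed.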

How the results depend on the processing

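The 10 genes under 22 alternatives gave 220 log2 differences per comparison. Of these, 196 kept their direction and side of the threshold for Fzd3 mutants against controls. The number was 215 for Celsr3 mutants against controls and 197 between the mutants. The alternative without a filter repeated the main fit, because the main filter kept all genes. A mean of 5 CPM as a filter, only the 2 genotypes compared, no trend and no moderation could change calls but not differences. The same held for leaving out a library of the genotype not compared, and for the replicate block in Fzd3 mutants against controls. Such values kept direction by construction, so the counts do not measure its stability. Bcl11b, Fezf2, Tbr1, Sox5 and Nfe2l3 kept their direction and call against controls in the Fzd3 mutants in all 22. Among these were the planned ones and the centring on genes of all neurons, which was chosen after seeing the data. That centring moved the median of all genes to -0.30. It thus took Bcl11b, Fezf2, Tbr1 and Sox5 further from 0 and is no test of their calls. Leaving out each library in turn gave 6 to 8 deep layer genes in the Fzd3 mutants, 0 in the Celsr3 mutants and 5 to 8 between the mutants, and 8 to 13, 0 and 8 to 12 other layer 5 and 6 genes. Over all genes it gave 2960 to 4314, 39 to 53 and 2973 to 4471, in place of 4366, 45 and 4346. With the replicate block 6, 0 and 5 deep layer genes, 10, 0 and 6 other layer 5 and 6 genes, and 3629, 29 and 2101 of all genes were called, and between the mutants Bcl11b and Tbr1 lost their calls. Celsr3 mutant 4 shares its number with no other library, so that block drops it. The numbers do not pair the libraries: same-numbered controls and Fzd3 mutants had a mean correlation of deviations of -0.141, and Celsr3 mutants 0.0298 with controls and 0.0559 with Fzd3 mutants. Without moderation 5, 0 and 3 deep layer genes and 3304, 24 and 3287 of all genes were called. Centring on genes of all neurons called 9741, 36 and 9978 of all genes, 7.18% and 7.10% of them higher in the Fzd3 mutants against controls and Celsr3 mutants, in place of 50.4% and 51.7%, after moving the median of all genes by -0.30 and -0.31. Centring on projection neuron genes gave 29.5% for Fzd3 mutants against controls, and for Celsr3 mutants the share higher ran from 25% without moderation to 52.9% with a mean of 5 CPM as a filter, in place of 42.2%. Some signs turned. Centring on projection neuron genes gave -0.0433 for Foxp2, -0.0076 for Tle4, -0.0419 for Dcx and -0.0493 for Hs3st4 in the Fzd3 mutants against controls, and -0.0385 for Ldb2 in the Celsr3 mutants. Centring on genes of all neurons gave -0.2688 for Foxp2, -0.2331 for Tle4, -0.1029 for Sla, -0.2674 for Dcx, -0.2748 for Hs3st4, -0.1533 for Reln and -0.1233 for Hba-a1, and -0.2005 for Tle4 between the mutants. Leaving out each library gave -0.0348 to 0.0976 for Foxp2, -0.0305 to 0.1521 for Tle4, -0.0604 to 0.0691 for Hs3st4, -0.0028 to 0.2692 for Reln and -0.1449 to 0.0428 for Dlx1 in the Fzd3 mutants. It gave -0.0918 to 0.1566 for Sox5, -0.0846 to 0.0677 for Ldb2 and -0.1361 to 0.0465 for Tle4 in the Celsr3 mutants, and -0.1284 to 0.0039 for Foxp2 between the mutants. The 54 genes that the rule for named genes takes from other lists kept direction and side of the threshold in 1088 of 1181 values. Ordered by CPM in place of CPM per kilobase, 9, 9 and 5 of the 10 genes took another rank in controls, Fzd3 mutants and Celsr3 mutants. The cause was not tested. The edgeR count test on recovered reads was not run, because too few values were low enough to check the steps independently, while voom weights used the same reads. With 3 libraries per genotype, a difference that did not pass is limited only to its interval.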
